A study of Mus musculus and Rattus norvegicus with 28 samples.

Results

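The 9 high mobility group (HMG) genes Hmgb1, Hmgb2, Hmgb3, Hmga1, Hmga2, Hmgn1, Hmgn2, Hmgn3 and Hmgn5 were followed by name through perinatal heart muscle of mouse and through cultured rat heart cells. They were 9 of the 55450 mouse genes and 9 of the 32623 rat genes in the expression files, and all 9 passed the filter on low values in both species. The mouse samples were cardiomyocytes from left ventricles of C57BL/6 animals of both sexes at embryonic day 18.5 (E18.5) and postnatal days 1, 3 and 7 (P1, P3 and P7), with 2 RNA-seq and 2 ATAC-seq libraries at each age. The rat samples were ventricular cardiomyocytes of Sprague Dawley pups at P1, which were all plated and then given 100 nM trichostatin A (TSA), an inhibitor of histone deacetylases, or its solvent DMSO as the control, with 3 RNA-seq libraries each. No sample carried a transgene or a deletion by its labels, and contaminating cells were reduced only by letting them attach to plastic before the cardiomyocytes were collected. From staining of cardiac troponin T, the paper reports that its mouse cell preparations were highly pure, including those of P7.

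HMG proteins are small, abundant chromatin proteins that are not histones. The HMGB proteins bend DNA with a pair of HMG boxes, the HMGA proteins bind the minor groove of AT-rich DNA with AT hooks, and the HMGN proteins bind the nucleosome itself and compete with linker histone H1. HMGA2 is best known from embryonic tissues and is a classic target of the let-7 microRNAs, HMGB1 also acts as a danger signal when it leaves the cell, and HMGB2 is abundant in dividing cells.

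The libraries did not hold cardiomyocyte RNA in equal measure, and this touches each comparison with E18.5. The summed FPKM (fragments per kilobase of transcript, scaled to the mapped fragments of the library) of 10 cardiomyocyte markers was 25222 and 32399 at E18.5, then 11970 and 19595 at P1, 8100 and 7054 at P3 and lastly 1970 and 831 at P7. Of these markers 2 of 10 were called lower at P1 than at E18.5 and 10 of 10 at P7. The sum of 8 fibroblast markers was 442 and 432 at E18.5, 1144 and 1378 at P1, and 2907 and 3628 at P7, with 6 of 8 called higher at P1 and 8 of 8 at P7. That of 6 smooth muscle and pericyte markers was 397 and 518 at E18.5 and 1026 to 1857 afterwards, with 4 of 6 called higher and 1 called lower at P7. That of 7 macrophage markers was 47.4 and 43.9 at E18.5 and 109 to 185 afterwards, with 1 called higher and 1 called lower at P7. Lyz2 alone had 9.45 and 10.3 FPKM at E18.5 and 75.7 to 135 afterwards, so this sum mostly follows 1 gene. By adjusted p alone, 4 of the 7 macrophage markers were higher and 3 were lower at P7. The sum of 6 erythroid markers was 29044 and 35392 at E18.5 and between 4.70 and 41.0 in the 6 postnatal libraries, with 6 of 6 called lower at P1, P3 and P7. Over all genes tested, 16.2% were called in either direction at P1, 21.9% at P3 and 27.7% at P7. No marker of these lists was at 0 in every library. In such bulk samples fewer cells of a type and less RNA per cell cannot be told apart, and the part of these shifts in the values below was not tested. Each library held 25.8 to 33.0 M estimated reads on transcripts in mouse and 27.2 to 37.2 M in rat (M for mega).

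The promoter sequences of 6 members are shown here because CCAAT boxes recur in the printed HMGB windows and not in the HMGA windows. Each run is the 250 bases before a RefSeq transcript start (GRCm38.p6), 5′ to 3′ on the gene's own strand, and capitals mark matches on either strand to the CCAAT box (CCAAT), the GC box (GGGCGG), the E2F site (GCGGGAA) or the CHR element (TTTGAA). The TATA box (TATAAA) and the AP-1 site (TGANTCA) were also searched and had no match in any of these windows. The windows are chr5:149053058-149053307 on the minus strand for Hmgb1, chr8:57511593-57511842 on the plus strand for Hmgb2, and chrX:71555667-71555916 on the plus strand for Hmgb3. They are chr17:27556324-27556573 on the plus strand for Hmga1, chr10:120476470-120476719 on the minus strand for Hmga2, and chrX:109013381-109013630 on the minus strand for Hmgn5.
Hmgb1: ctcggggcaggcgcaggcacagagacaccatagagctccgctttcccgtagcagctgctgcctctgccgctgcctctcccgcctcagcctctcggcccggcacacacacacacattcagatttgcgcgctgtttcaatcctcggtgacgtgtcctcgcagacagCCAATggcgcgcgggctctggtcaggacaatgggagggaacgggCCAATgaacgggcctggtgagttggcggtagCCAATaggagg
Hmgb2: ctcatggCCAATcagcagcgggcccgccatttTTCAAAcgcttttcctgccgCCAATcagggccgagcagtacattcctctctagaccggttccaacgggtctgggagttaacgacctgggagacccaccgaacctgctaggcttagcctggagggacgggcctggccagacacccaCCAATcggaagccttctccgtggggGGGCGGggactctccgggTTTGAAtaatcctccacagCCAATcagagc
Hmgb3: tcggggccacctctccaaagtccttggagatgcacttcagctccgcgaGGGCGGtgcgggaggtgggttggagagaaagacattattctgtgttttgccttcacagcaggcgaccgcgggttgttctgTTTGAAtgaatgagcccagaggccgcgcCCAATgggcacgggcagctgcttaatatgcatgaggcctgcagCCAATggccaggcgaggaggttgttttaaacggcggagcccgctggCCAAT
Hmga1: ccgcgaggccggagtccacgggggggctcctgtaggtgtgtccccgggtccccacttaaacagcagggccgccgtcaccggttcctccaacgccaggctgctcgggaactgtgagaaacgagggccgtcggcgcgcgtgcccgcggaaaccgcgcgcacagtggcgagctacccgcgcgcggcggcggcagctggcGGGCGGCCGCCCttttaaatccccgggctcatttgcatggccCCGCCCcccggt
Hmga2: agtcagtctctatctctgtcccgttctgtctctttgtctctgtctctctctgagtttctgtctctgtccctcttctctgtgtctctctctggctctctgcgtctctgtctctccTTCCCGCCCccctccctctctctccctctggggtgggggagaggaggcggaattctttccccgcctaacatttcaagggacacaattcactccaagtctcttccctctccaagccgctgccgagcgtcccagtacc
Hmgn5: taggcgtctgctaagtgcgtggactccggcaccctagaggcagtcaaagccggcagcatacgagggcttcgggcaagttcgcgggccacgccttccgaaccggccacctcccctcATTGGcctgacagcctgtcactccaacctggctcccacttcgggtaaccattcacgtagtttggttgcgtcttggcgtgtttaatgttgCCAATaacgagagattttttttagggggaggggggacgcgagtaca

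The printed windows of Hmgb1, Hmgb2 and Hmgb3 held 3, 4 and 3 CCAAT boxes, and all of these read in the direction of the gene. Across the 32817 windows of the same length in the RefSeq table, 33.8% held a CCAAT box and 2.79% held 3 or more. Counted from the RefSeq start, the nearest box began 11 bases before it in Hmgb1 and Hmgb2 and 5 bases before it in Hmgb3. The most abundant transcripts of Hmgb1 and Hmgb2 start further downstream, at chr5:149053040 and chr8:57511907, so the boxes lie further from those starts. The printed windows of Hmga1 and Hmga2 held none. The RefSeq table has a second window for Hmgb1 (chr5:149051617-149051866) and for Hmga1 (chr17:27556354-27556603), and each of these held 0 CCAAT boxes and 4 GC boxes, so the contrast between HMGB and HMGA genes does not extend to the other Hmgb1 start. The printed Hmga1 window held 3 GC boxes, 2 of them abutting on opposite strands, against a share of 32.7% of all windows with any. The single GC box of Hmga2 overlapped an E2F site, which 3.82% of windows held, within a long stretch rich in pyrimidines. Hmgb2 held 2 CHR elements and Hmgb3 held 1, against 16.0% of windows with any, and this element is known from genes of the late cell cycle. Hmgn5 held 2 CCAAT boxes on opposite strands and no GC box. The windows of Hmgn1 and Hmgn2, which are not printed, held 2 and 0 CCAAT boxes and 4 and 2 GC boxes. Recurring CCAAT boxes were thus not confined to the HMGB genes. A match is a description of the letters and not a bound site. A window was found for 8 of the 9 members, and none for Hmgn3.

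After birth members of the family moved in both directions. A gene was called when its adjusted p in limma was under 0.05 and its log2 fold change, on log2(FPKM + 1), was above 1 in size, and it is said to have risen or fallen when the adjusted p alone passed. At P7 against E18.5, 4 members had risen (Hmga1, Hmga2, Hmgb1 and Hmgn1) and 4 had fallen (Hmgb2, Hmgb3, Hmgn2 and Hmgn5), where 32.6% and 22.6% of all genes tested had done so, while Hmgn3 did not pass. Of these, Hmga1 and Hmga2 were called higher and Hmgn5 was called lower, so that 3 of 9 were called, where 27.7% of the 13979 genes tested were called. The number called was 2 at P1, where 16.2% of all genes tested were called, and 3 at P3, where 21.9% were. With 9 members these shares are close to the background, and the members are described one by one. Against E18.5 their median log2 fold change in order of age was 0.08, 0.19 and 0.34, beside 0.15, 0.16 and 0.14 over all genes tested. The 3 comparisons share the E18.5 libraries.

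That shift of the whole table depends on how libraries are scaled. The median over all genes tested was 0.38, 0.41 and 0.40 with TPM (transcript abundance scaled to a fixed total per library) and -0.01, -0.02 and -0.01 with median-of-ratios size factors. With the latter, 45.7%, 45.7% and 45.5% of called genes were higher at P1, P3 and P7, beside 62.5%, 59.4% and 55.7% in FPKM and 77.3%, 74.4% and 68.1% with TPM. Hmgb3 at P1 and Hmgn3 at P1 and P3 were the members whose direction depended on this scaling.

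**Figure D1:**
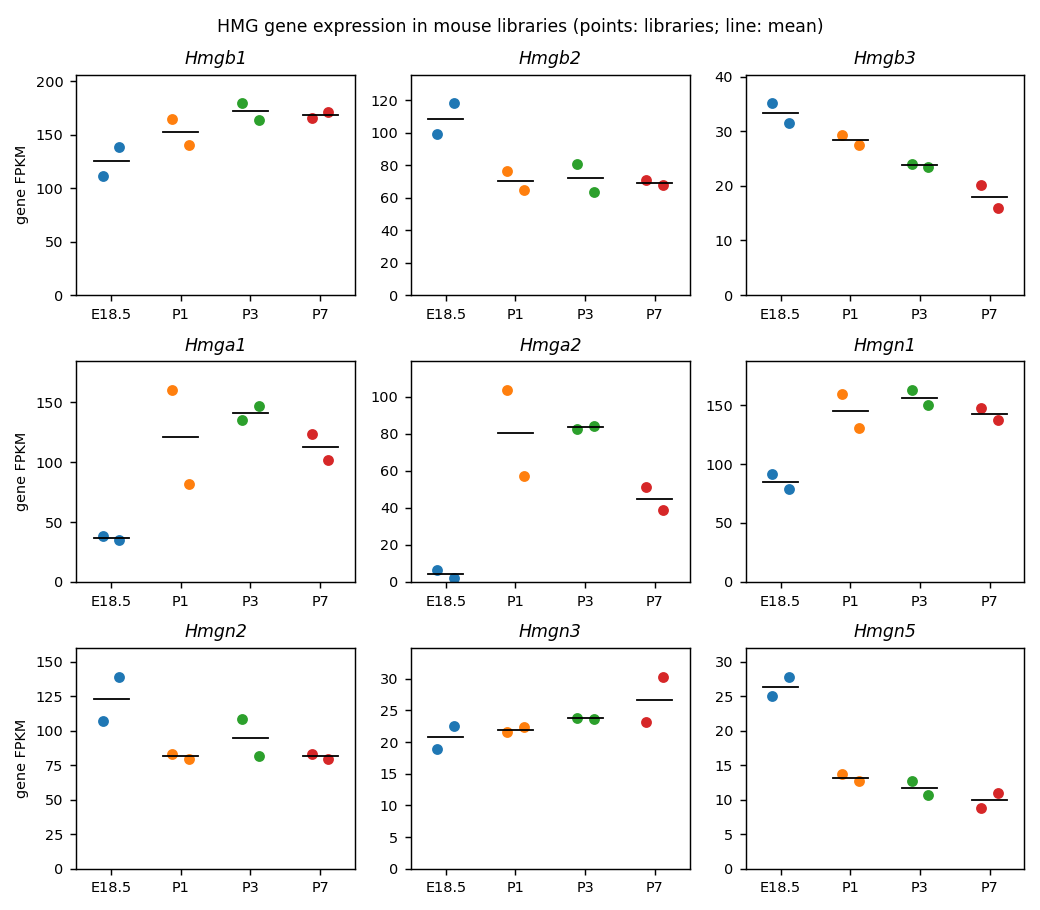
Gene FPKM of the 9 HMG genes (vertical axis, from 0, own scale in each panel) in the 8 mouse RNA-seq libraries by age, with 1 point per library and a line at the mean of the 2. Hmga2 stood at 2.04 and 6.32 FPKM at E18.5 and at 39.0 to 104 FPKM afterwards, and Hmgn5 was lower in all 6 postnatal libraries than at E18.5.

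Hmga2, the fetal AT-hook protein, changed most among the members. Its FPKM was 6.32 and 2.04 at E18.5, then 104 and 57.1 at P1, 82.4 and 84.4 at P3 and lastly 51.0 and 39.0 at P7. All 6 postnatal libraries were above both E18.5 libraries, and the 2 P7 libraries were below the 4 of P1 and P3. By limma the log2 fold change against E18.5 was 4.05 ± 0.41 (SE, n = 2 against 2; adjusted p = 0.00028) at P1, 4.16 ± 0.41 (adjusted p = 0.00016) at P3 and 3.27 ± 0.41 (adjusted p = 0.0003) at P7. The lower level at P7 did not pass, with a log2 difference from P1 of -0.77 ± 0.41 (limma, adjusted p = 0.25). That difference was -0.35 without P1 replicate 1, -1.20 without P1 replicate 2 and -0.58 to -0.96 with 1 P7 library left out. The log2 fold changes against E18.5 were 4.68, 4.80 and 3.91 without E18.5 replicate 1 and 3.41, 3.53 and 2.64 without E18.5 replicate 2, and Hmga2 was called in each. From rank 9 in mean FPKM at E18.5, Hmga2 moved to rank 5 at P1 and P3 and rank 6 at P7.

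The Hmga2 signal was spread over the whole gene, which lies on chr10:120361275-120476469 in mm10. Its main transcript (ENSMUST00000072777.13) has 5 exons, the last of 3022 bases, and its 5 exons were covered 18.1 to 29.2 times more at P1 than at E18.5 as ratios of mean coverage. The ratios were 18.6 to 31.0 at P3 and 8.79 to 16.2 at P7, in each case lowest in the last exon. They depend on the E18.5 library they are set against, since without E18.5 replicate 1 they were 32.1 to 128 at P1, 32.9 to 135 at P3 and 15.5 to 71.0 at P7. Without E18.5 replicate 2 they were 12.6 to 18.4, 13.0 to 19.6 and 6.12 to 10.2, and without P1 replicate 1 those at P1 were 11.0 to 15.6. The read depth behind the E18.5 values was small in comparison, at 687 and 257 estimated reads, beside 5220 to 13875 in the postnatal libraries. A second transcript (ENSMUST00000159699.1), which adds an exon of 100 bases before the last, was listed at 0 in both E18.5 libraries and at 9.80 to 20.9 FPKM afterwards. The 2 transcripts share their other exons, and the added exon itself was covered 1.34 to 10.8 times per base, so the split between them is an estimate.

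**Figure D2:**
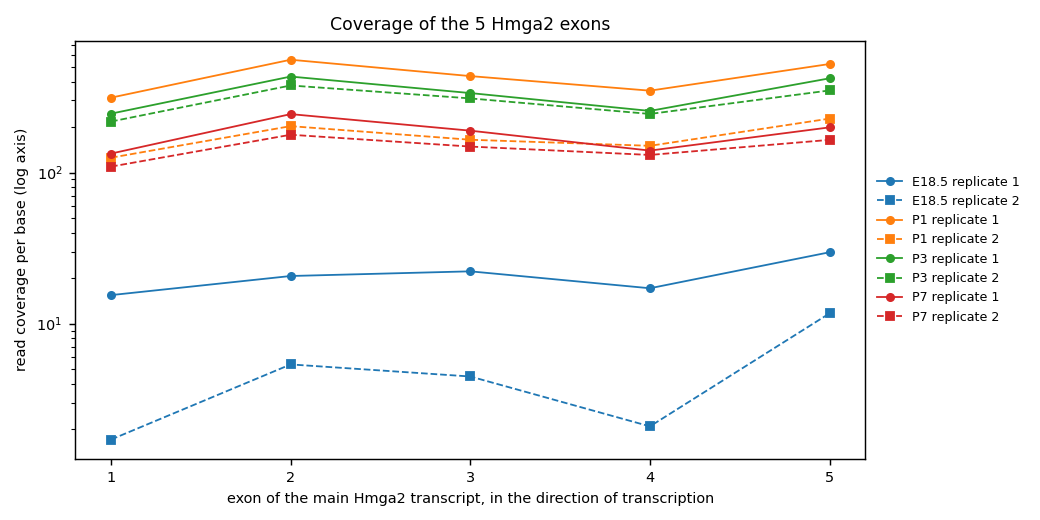
Read coverage per base (vertical axis, log scale) of the 5 exons of the main Hmga2 transcript (horizontal axis, in the direction of transcription), with 1 line per mouse library. Each exon was covered at least 109 times per base in the 6 postnatal libraries and at most 29.7 times in the 2 E18.5 libraries.

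Hmga1, the broadly expressed AT-hook protein of growing cells, moved the same way. Its FPKM was 38.5 and 35.0 at E18.5, then 160 and 82.1 at P1, 135 and 147 at P3 and lastly 124 and 102 at P7. The P1 libraries lay far apart, yet both were more than 2 times the higher E18.5 library. The log2 fold change by limma was 1.62 ± 0.27 at P1 (SE; adjusted p = 0.0026), 1.91 ± 0.27 at P3 (adjusted p = 0.00087) and 1.58 ± 0.27 at P7 (adjusted p = 0.0016). With no filter on low values the P1 call was lost (limma, adjusted p = 0.064). The 2 HMGA genes together made up 8.42% and 6.25% of the summed FPKM of the 9 members at E18.5 and 21.5% to 32.5% in the postnatal libraries. Hmga1b, a near-identical copy with a row of its own, had 11.8 and 12.6 FPKM at E18.5 and 26.6 to 44.6 FPKM afterwards, so reads shared between them cannot be assigned with certainty. Summed with this copy, Hmga1 had log2 fold changes of 1.58, 1.89 and 1.57.

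Among the HMGB genes the order of the 2 major members changed from near parity to a clear excess of Hmgb1. Hmgb1 had 111 and 139 FPKM at E18.5, then 165 and 141 at P1, 179 and 164 at P3 and lastly 166 and 172 at P7. Hmgb2 had 99.2 and 118 FPKM at E18.5, then 76.0 and 64.4 at P1, 80.4 and 63.6 at P3 and lastly 70.8 and 67.7 at P7. The ratio of Hmgb1 to Hmgb2, which does not depend on how a library is scaled, was 1.12 and 1.18 at E18.5 and between 2.17 and 2.58 in all 6 postnatal libraries.

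Hmgb2 fell by 0.62 ± 0.16 on the log2 scale at P1 (SE; limma, adjusted p = 0.015), by 0.59 ± 0.16 at P3 (limma, adjusted p = 0.015) and by 0.64 ± 0.16 at P7 (limma, adjusted p = 0.0096), and it was not called at any age. Its groups did not overlap at any age, where 26%, 28.4% and 32.7% of all genes tested were lower without overlap at P1, P3 and P7. The fall missed the threshold with TPM (limma, adjusted p = 0.054, 0.074 and 0.0501), with no filter on low values (limma, adjusted p = 0.11, 0.11 and 0.082) and without E18.5 replicate 2 (limma, adjusted p = 0.08, 0.083 and 0.056). It also missed it without P1 replicate 2 at P1, P3 replicate 2 at P3 and P7 replicate 2 at P7 (limma, adjusted p = 0.076, 0.11 and 0.053). Hmgb1 did not pass at P1, with a log2 fold change of 0.29 ± 0.14 (limma, adjusted p = 0.14), and rose at P3 and P7 by log2 0.46 ± 0.14 and 0.44 ± 0.14 (limma, adjusted p = 0.029 and 0.032). At P1 it passed with TPM, at 0.53, and with limma-voom, at 0.44 (limma, adjusted p = 0.011 and 0.039). It did not pass at any age with median-of-ratios size factors, where its log2 fold changes were 0.09, 0.25 and 0.26, or with no filter on low values. The rise was also lost without E18.5 replicate 1, at 0.30 at P3 and 0.28 at P7 (limma, adjusted p = 0.13 and 0.15), and without either library of the later age, at adjusted p of 0.071 to 0.15 by limma. At P7 it was lost as well without either P3 library and in a fit of E18.5 and P7 alone, with limma adjusted p of 0.051 in each.

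Hmgb3, the X-linked member known from progenitor cells, had an ordered decline. Its FPKM was 35.1 and 31.6 at E18.5, then 29.3 and 27.5 at P1, 24.1 and 23.4 at P3 and lastly 20.1 and 15.9 at P7. No library overlapped with one of another age. The log2 difference from E18.5 was -0.22 ± 0.14 at P1 (limma, adjusted p = 0.24), -0.47 ± 0.14 at P3 (limma, adjusted p = 0.027) and -0.86 ± 0.14 at P7 (limma, adjusted p = 0.0014). Between P1 and P7, without the E18.5 libraries in the contrast, Hmgb3 fell by 0.64 ± 0.14 (SE; limma, adjusted p = 0.019). At P7 it was called with median-of-ratios size factors, with a log2 fold change of -1.04, and without P7 replicate 1, with -1.02. At P1 the difference from E18.5 was 0.0073 with TPM and -0.42 with median-of-ratios size factors, where it passed (limma, adjusted p = 0.041). The fall at P3 was lost with TPM, at -0.23, with no filter on low values, and without E18.5 replicate 1 or either P3 library (limma, adjusted p = 0.091 to 0.21 over these). That from P1 to P7 was lost with no filter and without either P1 library or P7 replicate 2 (limma, adjusted p = 0.067 to 0.16).

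**Figure D3:**
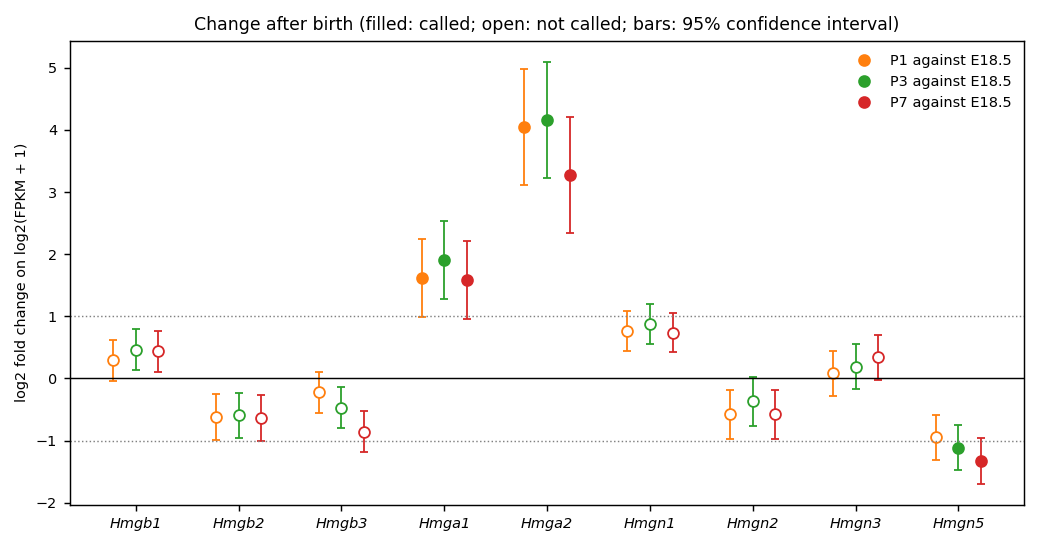
Log2 fold change on log2(FPKM + 1) against E18.5 (vertical axis) of each HMG gene at P1, P3 and P7, with 95% confidence intervals from limma, filled points for called genes, and dotted lines at the fold threshold of 1 on either side of 0. Hmga1 and Hmga2 were called higher at all 3 ages and Hmgn5 was called lower at P3 and P7.

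The HMGN genes, whose products bind nucleosomes, split into risers and fallers. Hmgn1 had 91.2 and 78.7 FPKM at E18.5 and between 131 and 163 FPKM in the 6 postnatal libraries, which were all higher. It rose by log2 0.76 ± 0.14 at P1, 0.87 ± 0.14 at P3 and 0.74 ± 0.14 at P7 (SE; limma, adjusted p = 0.0038, 0.0015 and 0.0025). It was not called in FPKM, and was called at each age with TPM, with 1.00, 1.13 and 1.00.

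Hmgn2, of similar structure, had 107 and 139 FPKM at E18.5, then 83.2 and 79.8 at P1, 108 and 81.8 at P3 and lastly 83.5 and 79.4 at P7. P3 replicate 1 lay within the E18.5 range and the other 5 postnatal libraries were below it. Hmgn2 fell by 0.58 ± 0.17 on the log2 scale at P1 and at P7 (SE; limma, adjusted p = 0.028 and 0.021), and at P3 the difference was -0.37 ± 0.17 (limma, adjusted p = 0.11). It did not pass with TPM at any age (limma, adjusted p = 0.1, 0.54 and 0.11), and the falls at P1 and P7 were lost with no filter on low values, without E18.5 replicate 2, at -0.39 at both ages, and without either library of the later age (limma, adjusted p = 0.063 to 0.19). At P3 it passed with median-of-ratios size factors, at -0.59, and without E18.5 replicate 1, at -0.56 (limma, adjusted p = 0.034 and 0.045). Hmgn2-ps1, a processed copy, had 14.1 and 19.1 FPKM at E18.5 and 8.27 to 12.7 FPKM afterwards.

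Hmgn5, an X-linked member with a long acidic tail, had the largest fall of the 9 at P1, P3 and P7. Its FPKM was 25 and 27.8 at E18.5, then 13.7 and 12.7 at P1, 12.7 and 10.6 at P3 and lastly 8.86 and 11.0 at P7. All postnatal libraries lay below both E18.5 libraries, in 570 to 953 estimated reads beside 1416 and 1832. It fell by 0.95 ± 0.16 at P1, by 1.11 ± 0.16 at P3 and by 1.33 ± 0.16 at P7 on the log2 scale (SE; limma, adjusted p = 0.0026, 0.00087 and 0.00024), and was called at P3 and P7. The P3 call was lost with TPM, with -0.90, and without P3 replicate 2, with -0.99. At P1 it was called with median-of-ratios size factors, with -1.14, with limma-voom, with -1.01, and without E18.5 replicate 1 or P1 replicate 1, with -1.02 and -1.002.

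Hmgn3 had 19.0 and 22.5 FPKM at E18.5, then 21.6 and 22.4 at P1, 23.8 and 23.7 at P3 and lastly 23.1 and 30.3 at P7. It did not pass at any age, with log2 differences from E18.5 of 0.08 ± 0.16, 0.19 ± 0.16 and 0.34 ± 0.16 (limma, adjusted p = 0.7, 0.35 and 0.1) and a 95% interval at P7 of -0.02 to 0.70. At P7 it passed with TPM, at 0.61, and without P7 replicate 1, at 0.53 (limma, adjusted p = 0.013 and 0.047). One of its transcripts (ENSMUST00000162246.8) was listed at 3.31 and 3.92 FPKM at E18.5, then 6.25 and 5.96 at P1, 8.88 and 6.52 at P3 and lastly 9.65 and 11.7 at P7. The most abundant transcript (ENSMUST00000161796.8) ranged from 7.28 to 12.3 FPKM over the 8 libraries. The deposited values split shared exons between transcripts, so this change of make-up has no test.

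In the order of mean FPKM, Hmgb1 was first at every age. At E18.5 Hmgn2 (123 ± 22.4, SD, n = 2) and Hmgb2 (109 ± 13.3) followed and did not differ from Hmgb1 (125 ± 19.6) beyond their spread, while Hmgn1 had rank 4 with 85.0 ± 8.79. At P7 Hmgn1 (142 ± 7.06) and Hmga1 (113 ± 15.5) had moved ahead of Hmgn2 (81.4 ± 2.90) and Hmgb2 (69.2 ± 2.17). Hmgb3 (18 ± 2.97) and Hmgn5 (9.93 ± 1.52) stood last at P7. Among the postnatal ages no member was called: 0 of 9 for P3 against P1, P7 against P1 and P7 against P3, where limma called 0.0143%, 8.91% and 3.55% of all genes tested. At an unadjusted p under 0.05 the numbers were 0, 2 and 1, where 11.3%, 31% and 18.5% of all genes tested reached it, and limma-voom called 0 in each.

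Over the 8 mouse libraries the genes most like 3 members in pattern were read by Pearson's r across 6344 genes with a mean of at least 10 FPKM. The libraries fall into E18.5 and later ages, so such values describe that split and carry no test. Nearest to Hmgb2 were Stmn1 (r = 0.987), a regulator of microtubules, Rps24 (0.984), a ribosomal protein, and Klf4 (0.972), a transcription factor. Stmn1 had 153 and 185 FPKM at E18.5 and 85.0 to 107 FPKM afterwards. Nearest to Hmga1 were Set (0.994), a histone chaperone, Nqo1 (0.993) and Prkar2b (0.992), and nearest to Hmgn2 were Mrpl39 (0.978), Dctpp1 (0.959) and Mien1 (0.956). For Hmga2, added after its values were seen, they were Tns3 (0.994), Pelp1 (0.993) and Thbs1 (0.992), and Thbs1 had 114 and 52.0 FPKM at E18.5 and 319 to 602 FPKM afterwards.

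Genes that work beside the HMG proteins were read as lists. Of 14 proliferation genes, 9 had risen at P7 against E18.5 and none had fallen, where 32.6% and 22.6% of all genes tested had done so. The list median was 0.66 beside 0.14 over all genes tested, whereas Hmgb2, often taken as a marker of dividing cells, had fallen. The 5 called were Tyms, Plk1, Mcm5, Cdk1 and Aurkb, where 27.7% of all genes tested were called. Tyms, which makes thymidylate for DNA synthesis, had 3.92 and 4.04 FPKM at E18.5 and 33.8 and 29.8 at P7, and Plk1, a mitotic kinase, had 18.5 and 25.4 at E18.5 and 51.8 and 55.2 at P7. Mki67 had 15.0 and 18.5 FPKM at E18.5 and 16.0 and 18.5 at P7.

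Of 14 other HMG-box chromatin genes tested, 5 had risen and 3 had fallen at P7, with a median of -0.03. These counts are near the shares over all genes tested, of which 32.6% had risen and 22.6% had fallen. Called among them were Ssrp1, the HMG-box subunit of the histone chaperone FACT, at log2 1.28 ± 0.14 (SE; limma, adjusted p = 0.00016), and Hbp1 and Hmg20b at -1.20 ± 0.13 and -1.06 ± 0.14 (limma, adjusted p = 0.00014 and 0.00039). Of 8 histone variant genes, 2 had risen and 4 had fallen, where 32.6% and 22.6% of all genes tested had done so. Those called were H2afy and H2afy2, which encode the macroH2A histones, with log2 fold changes of 1.03 and 1.16, and Cenpa, the centromeric histone, with -1.05. Of 7 linker histone genes, which HMGN proteins compete with, only 3 were measured well enough to test. H1f0 rose by log2 0.50 ± 0.13 and Hist1h1c fell by 0.49 ± 0.16 (SE; limma, adjusted p = 0.012 and 0.035).

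Of 12 genes for receptors and partners of HMGB1, 6 had risen and 2 had fallen at P7, beside 32.6% and 22.6% of all genes tested. Their median was 0.21, and the only one called at that age was Cxcl12, a chemokine that forms a complex with HMGB1. Cxcl12 had 7.51 and 8.89 FPKM at E18.5 and 72.6 and 82.5 at P7, a log2 fold change of 3.10 ± 0.21 (SE; limma, adjusted p = 2.2e-05). Its receptor Cxcr4 moved the other way and back, with 17.3 and 10.3 FPKM at E18.5, then 0.687 and 0.847 at P1, 1.85 and 3.83 at P3 and lastly 8.71 and 15.6 at P7. It was called lower at P1 and P3, by log2 -3.03 ± 0.35 and -1.96 ± 0.35 (SE; limma, adjusted p = 0.00054 and 0.0027), and called higher from P1 to P7, by 2.85 ± 0.35 (limma, adjusted p = 0.0016). Of 5 tested genes around HMGA2 and let-7, only Drosha, which processes primary microRNAs, had changed at P7, with a rise of log2 0.63 ± 0.14 (SE; limma, adjusted p = 0.0056). At P3 Igf2bp3, an RNA-binding protein, had also risen, by log2 0.54 ± 0.18 (SE; limma, adjusted p = 0.035). Igf2bp2, a known target of HMGA2, had 39.2 and 25.6 FPKM at E18.5 and 38.5 and 29.7 at P7 (limma, adjusted p = 0.75).

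The ATAC-seq peak lists, which name stretches of open chromatin, showed a different pattern from the expression values. A promoter peak is one within 2.5 kb of any transcript start of the gene. The numbers of members with one were 8 and 6 in the E18.5 libraries, 8 and 3 at P1, and 9 in every library of P3 and P7. In both libraries of an age it was 5 of 9 at E18.5, then 3 at P1, 9 at P3 and lastly 9 at P7, where 56.7%, 41.3%, 87.5% and 83.2% of the 13979 expressed genes had one. The member numbers were thus lower at P1 and higher at P3 and P7 than at E18.5, as were these shares of expressed genes. They did not follow list length at P1, where both lists were longer than either E18.5 list. By library, the total peak number was 13149 and 14910 (E18.5), 29281 and 19753 (P1), 95257 and 52040 (P3), and 49113 and 35898 (P7). P1 replicate 2 stood apart, with a promoter peak at 43.0% of expressed genes beside 62.4% to 91.7% in the other 7 libraries, and with P1 replicate 1 alone the P1 number was 8. From E18.5 replicate 1 alone the E18.5 number was 8. With the same number of top peaks taken from each list, the P3 number was 5.

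Hmgb1, Hmgb2 and Hmgn1 had a promoter peak in all 8 libraries, 3 of 9 where 36.6% of expressed genes did. With the same number of top peaks from each list, Hmgb1 and Hmgb2 did, 2 of 9 where 22.5% of expressed genes did. A region is the merged stretch of overlapping promoter peaks from all libraries, so the peak of a single library can be shorter. The Hmgb2 region (chr8:57511174-57512276) had fold enrichments of 10.4 and 11.4 at E18.5, then 12.2 and 11.2 at P1, 10.6 and 13.8 at P3 and lastly 9.11 and 10.05 at P7. These put it above 94.9% to 99.1% of the peaks in each list, while Hmgb2 expression was lower after birth. The printed Hmgb2 window with its 4 CCAAT boxes lies wholly inside that region. The same holds for the printed window of Hmgb1, whose region at the main start (chr5:149052684-149053381) had fold enrichments of 8.23 to 12.8. This was not particular to them, since the windows of Hmgb3, Hmga2, Hmgn1, Hmgn2 and Hmgn5 also lie wholly inside regions of their genes. The printed Hmga1 window had 215 of its 250 bases in such regions. Hmgb1 had a further region in all 8 libraries (chr5:149183810-149185092) at a rare upstream start, which it shares with the start of the gene Uspl1.

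Promoter peaks of low rank were found at Hmga1 and Hmgn2. Hmga1 had no promoter peak in E18.5 replicate 2 or in either P1 library, and fold enrichments of 3.55 in E18.5 replicate 1, 4.30 and 4.78 at P3, and 3.22 and 4.03 at P7. These ranked above only 1.22% to 37.9% of the peaks in their lists, although Hmga1 had 82.1 and 160 FPKM at P1. Hmga2 had a merged region of 1596 bases across its start (chr10:120475739-120477334), while the mean width of all peaks was 214 to 457 bases by library. Hmga2 had a peak there in E18.5 replicate 2 at 4.98-fold and none in E18.5 replicate 1. It had a peak in P1 replicate 1 at 5.94-fold, none in P1 replicate 2, 6.74-fold and 5.81-fold at P3, and 5.90-fold and 3.99-fold at P7. RNA-seq and ATAC-seq libraries with the same number are not known to come from the same animals. A list without a peak shows only that none passed the caller's threshold there.

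Hmgb3, Hmgn3 and Hmgn5 had peaks of middling to high rank in most lists. Hmgb3 and Hmgn3 lacked one only in P1 replicate 2, and Hmgb3 reached 12.9-fold at P3, where its expression had fallen. Hmgn5 lacked one in E18.5 replicate 2 and P1 replicate 2 and had 8.21-fold in E18.5 replicate 1, 11.1-fold and 9.43-fold at P3, and 7.11-fold and 5.53-fold at P7. Hmgn2 lacked one in the same 2 libraries, and its values elsewhere were 3.09-fold to 6.72-fold, above 5.78% to 59.5% of the peaks in their lists. Those of Hmgn3 in the E18.5 libraries ranked above only 2.57% and 12.3%.

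**Figure D4:**
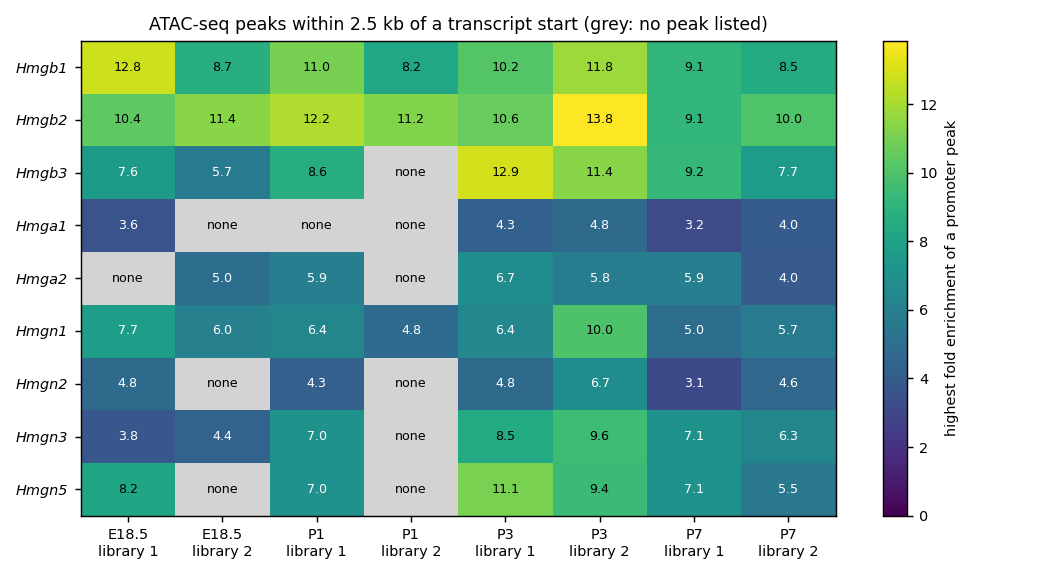
Highest fold enrichment over background of any ATAC-seq peak within 2.5 kb of a transcript start (colour and number), for each HMG gene (rows) and mouse library (columns), with grey where the list held no such peak. Hmgb1, Hmgb2 and Hmgn1 had a peak in all 8 libraries, and 6 members lacked one in P1 replicate 2.

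In rat cultures the question was whether blocking histone deacetylases moved these genes. By limma 0 of 9 members were called, where 2.13% of the 13625 genes tested were, 0 of 9 passed on adjusted p alone, and limma-voom called 0. At an unadjusted p under 0.05, limma gave 4 of 9 (Hmga1, Hmga2, Hmgb2 and Hmgn3), where 19.8% of all genes tested reached it. The groups did not overlap for 4 members that were higher and 1 that was lower with TSA, where 17.1% and 10.1% of all genes tested did so. With 3 against 3, and same-numbered cultures not kept together, the smallest two-sided p of an exact permutation test is 0.1. The summed FPKM of 9 cardiomyocyte markers was 10432 to 14275 in control and 10073 to 20889 in TSA cultures, and that of 7 fibroblast markers was 6383 to 6930 in control and 3565 to 5965 in TSA cultures, and the part of these differences was not tested.

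Hmga1 had 57.0, 64.8 and 42.6 FPKM in the control cultures and 82.0, 87.4 and 96.0 with TSA. All TSA cultures were higher than all controls, with a log2 difference of 0.70 ± 0.16 (SE, n = 3 against 3; limma, adjusted p = 0.067; exact permutation p = 0.1). Without control replicate 3 the difference was 0.53 (limma, adjusted p = 0.045). Hmga2, so prominent in postnatal mouse, was near the floor, at 1.33, 1.44 and 0.971 FPKM in control and 2.74, 2.06 and 1.86 with TSA, a log2 difference of 0.51 ± 0.17 (limma, adjusted p = 0.16; exact permutation p = 0.1). The rat files hold 1 transcript of 805 bases for Hmga2 and 1 of 324 bases for Hmga1, against a mouse main transcript of 3710 bases for Hmga2, so levels in the 2 species are given side by side only.

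Hmgb2 had 53.7, 41.5 and 55.7 FPKM in control and 38.7, 34.5 and 38.2 with TSA. All TSA cultures were below all controls, with a log2 difference of -0.42 ± 0.13 (SE; limma, adjusted p = 0.15; exact permutation p = 0.1). None of the 14 proliferation genes passed, with a list median of -0.47 beside 0.03 over all genes tested. Hmgn3 had 66.1, 60.5 and 35.2 FPKM in control and 83.8, 81.9 and 72.8 with TSA, a log2 difference of 0.60 ± 0.23 (limma, adjusted p = 0.21; exact permutation p = 0.1). Without control replicate 3, which was the lowest, it was 0.32.

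**Figure D5:**
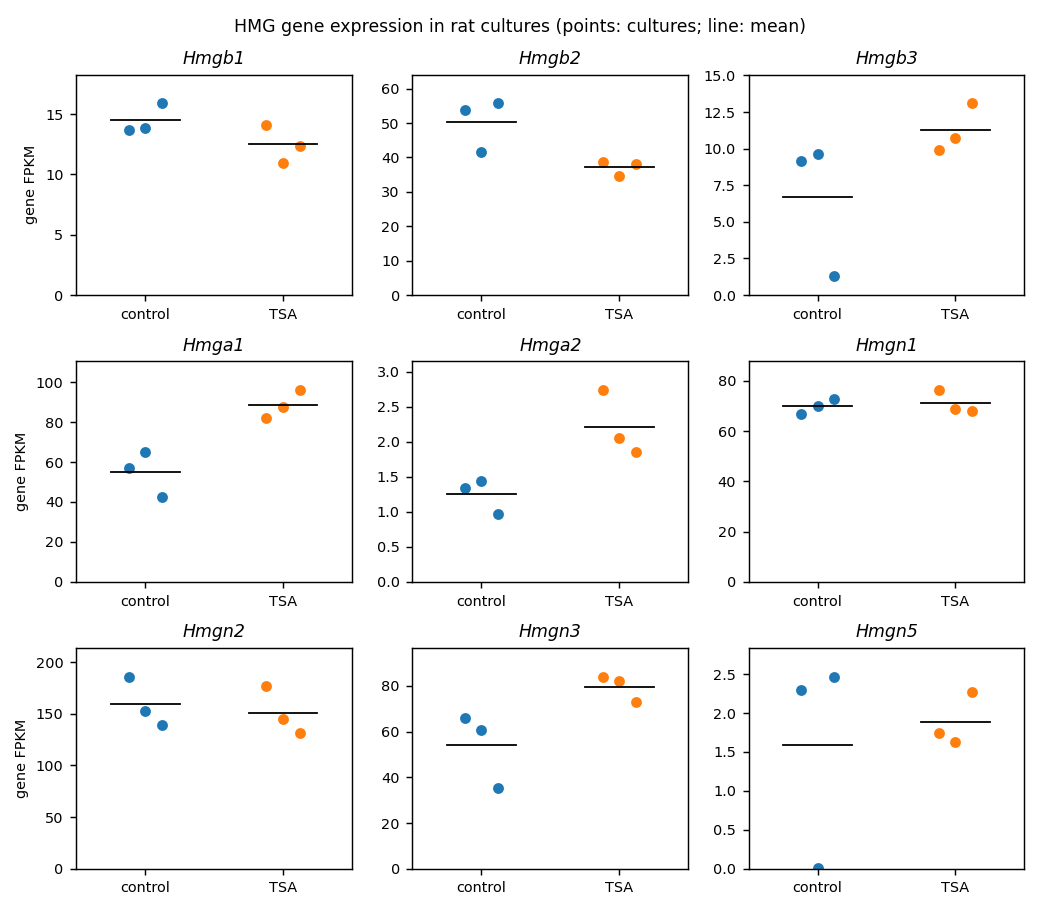
Gene FPKM of the 9 HMG genes (vertical axis, from 0, own scale in each panel) in 3 control and 3 TSA-treated rat cultures, with 1 point per culture and a line at the mean. All TSA cultures were above all controls for Hmga1, Hmga2, Hmgb3 and Hmgn3 and below them for Hmgb2, and control replicate 3 stood apart for Hmgb3 at 1.29 FPKM.

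The other rat members differed by less than the spread between cultures or rest on a single culture. Hmgb3 had 9.16, 9.64 and 1.29 FPKM in control and 9.89, 10.7 and 13.1 with TSA, and its log2 difference was 0.96 ± 0.57 (SE; limma, adjusted p = 0.42) with all cultures and 0.23 without control replicate 3. In that culture the summed macrophage markers were 483, beside 1001 and 1019 in the other controls, and the smooth muscle and pericyte markers 2176, beside 933 and 851. Most of these macrophage sums was Lyz2, with 390 FPKM beside 777 and 779. TSA replicate 3 stood apart in the same directions, with 402 beside 534 and 455 for macrophage markers. Its smooth muscle and pericyte markers were 1407 beside 611 and 607. Leaving out control replicate 3 keeps that same-numbered TSA culture in, and the part of these markers was not tested. Hmgn5 had 2.29, 0.0136 and 2.46 FPKM in control and 1.75, 1.63 and 2.27 with TSA, and the low value in control replicate 2 decides its sign, since without it the log2 difference was -0.23 in place of 0.34. Hmgn5b, a related row, had 2.91 to 5.05 FPKM.

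Hmgn2 was the most abundant rat member, at 139 to 185 FPKM in control and 132 to 177 with TSA, and Hmgn1 had 66.7 to 72.7 and 68.1 to 76.2. Their log2 differences were -0.08 ± 0.15 and 0.02 ± 0.09 (limma, adjusted p = 0.84 and 0.92), with 95% intervals of -0.44 to 0.29 and -0.19 to 0.24. Rat Hmgb1 had 13.7 to 15.9 FPKM in control and 10.9 to 14.1 with TSA, and a related row, Hmg1l1, had 6.98 to 10.8 FPKM, so its level is uncertain where the counting splits shared reads.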

How the data were processed

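RNA-seq was measured in 8 mouse and 6 rat libraries and ATAC-seq in 8 mouse libraries. HiChIP libraries were not analysed here. The authors aligned poly-A RNA reads with HISAT2 2.1.0 and ran StringTie (1.3.5 per the labels) on mm10 with GENCODE vM21 or rn6 with Ensembl annotation. The deposited files give FPKM, TPM and coverage per transcript, as the authors' StringTie run wrote them. For ATAC-seq the authors trimmed with cutadapt, aligned with Bowtie2 and called peaks with MACS2 in each library. The deposited peak score, the fold enrichment as a ratio, and the −log10 p and −log10 q values are those of the authors' MACS2 run.

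A gene's FPKM was the sum over its transcripts. Reads were estimated as coverage times length over read length, and their number limits precision by counting error only. Genes with at least 1 FPKM in 2 mouse or 3 rat libraries were tested (13979 and 13625). The values log2(FPKM + 1) were compared with limma 3.58.1 in R 4.3.3, with all mouse ages in 1 fit, two-sided, with Benjamini-Hochberg adjustment over all genes tested. A fold change on this scale understates that of low genes. The call required both an adjusted p below 0.05 and a change of more than 1 on the log2 scale. The study used edgeR on counts, which were not used here. Exact permutation tests were made with scipy 1.17.1. The fit was tested on simulated data.

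Groups came from the sample labels. The study describes 2 biological replicates at each mouse age. For the rat cultures nothing states separate litters, so p-values measure the spread between these samples. Same-numbered rat cultures deviated together from their group means (r = 0.22, 0.19 and 0.35 across genes), so they may be paired, which the labels do not state. The rat SEs, intervals and limma p-values given here are from the fit without a replicate block. The permutation test did not keep same-numbered cultures together, so neither takes account of a possible pairing. The fit with that block changed no call. Members and lists were chosen with earlier results of these data known. All 9 members are named. Of each other list up to 4 called genes with the largest change were to be named, and other named list genes were chosen after their values were seen. Of named copies, those reaching 1 FPKM were read. Alternatives were another pseudocount, other filters, limma-voom, TPM, size factors by median of ratios, a replicate block, fits of 2 ages, each library left out, genes summed with copies and exon ratios without each library (both chosen after seeing the data) and, for peaks, list length and window. Promoter sequences are from RefSeq.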

Additional observations from a re-analysis of the deposited data

How the results depend on the processing

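The numbers of HMG genes called kept within 1.5 times their reported value under every alternative, except at P1 against E18.5, where 1 was called in place of 2 with no filter on low values. Leaving out each library in turn gave 2 to 3 called at P1, 2 to 3 at P3, 3 to 4 at P7, and 0 between postnatal ages and in rat. For promoter peaks in both libraries the E18.5 number was 3 with the upper 50% of each list and 6 to 8 from single libraries. The P1 number was 3 to 8 from single libraries. With an equal number of top peaks the P3 number was 5 and the P7 number 6, and the P7 number ran from 6 to 9 over all settings. Direction reversed for some members that had not passed. Hmgb3 at P1 was 0.0073 with TPM. Hmgn3 was -0.11 at P1 and -0.020 at P3 with median-of-ratios size factors, and ran from -0.035 to 0.20 at P1 with each library left out in turn. In rat, Hmgn1 was -0.048 with TPM and -0.016 with median-of-ratios size factors, and Hmgn5 was -0.12 when summed with its copy. With each rat culture left out in turn, Hmgn1 ran from -0.028 to 0.052, Hmgn2 from -0.19 to 0.040 and Hmgn5 from -0.23 to 0.65. Hmgn5, at 0.34 as reported, was 1.147 with a pseudocount of 0.1 FPKM and 1.95 with limma-voom, and did not pass with either. Control replicate 2 held 0.937 estimated reads of Hmgn5, beside 150 and 166 in the other controls. Its part in these larger values was not tested. Rat Hmga2 and Hmgn5 could not be tested at a mean FPKM of at least 5.

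In mouse the correlation of same-numbered deviations ranged from -0.10 to 0.17 across genes. Such correlations cannot decide whether libraries were paired, since the labels give replicate numbers only. With the replicate block the numbers called were 2 at P1, 3 at P3 and 3 at P7, as without it. In rat, where same-numbered cultures deviated together, the replicate block gave 0 called, as without it, and changed no other call. With 2 libraries at an age, a difference carried by 1 library cannot be separated from the age, and a lone library left in a group was assumed to vary like the others. At E18.5, Hmga2 rests on 257 and 687 estimated reads.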

Other observations

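HMG gene copies were counted apart from the members. Of 15 named copies in mouse, 5 reached 1 FPKM in any library. These were Hmga1b and Hmgn2-ps1, given above, and Hmgb1-ps2, Hmgb1-ps3 and Hmgb1-ps7, processed copies of Hmgb1. Hmgb1-ps2 had 3.58 and 5.14 FPKM at E18.5 and 5.70 to 8.94 FPKM afterwards, and Hmgb1-ps3 and Hmgb1-ps7 peaked at 1.68 and 1.74. Hmgb4, a testis-specific HMG-box gene, was listed at 0 in all 14 libraries. In rat all 3 named copies reached 1 FPKM, among them Hmgb2l1 with 5.30 to 6.74 FPKM in control and 4.51 to 4.81 with TSA cultures.

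Among rat genes beside the family, 1 histone variant gene rose with TSA without being called, Macroh2a2, which encodes a macroH2A histone, from 9.84, 10.1 and 10.3 FPKM to 19.1, 16.3 and 14.1 (log2 0.65 ± 0.13, SE; limma, adjusted p = 0.046). Of 10 tested genes for receptors and partners of HMGB1, 1 was called, where 2.13% of all genes tested were. This was Cd24, a surface protein that binds HMGB1, from 2.35, 2.33 and 1.49 FPKM to 8.57, 9.19 and 6.40 (log2 1.57 ± 0.19, SE; limma, adjusted p = 0.012). None of the 15 other HMG-box chromatin genes tested in rat passed.

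Peaks between 2.5 and 50 kb from a start were most numerous around Hmgb1, Hmgn1 and Hmga1, at 13, 11 and 9 in P3 replicate 1, the longest list, and Hmgn5 had none in any library. They were counted around any start of a gene, so more or more widely spaced starts take in more bases. Hmgb1 has 10 starts, Hmgn1 has 4, Hmga1 has 14 and Hmgn5 has 1.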
